A study of Mus musculus with 26 samples.

Results

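The genes examined are a list of 55 regulators and effectors of the cell cycle and mitosis, chosen by name. Of these, 51 had a named probe set on the array, out of 19505 genes measured, and where a gene had more than 1 probe set, the brightest on average stood for it. The cyclins Ccnb1 and Ccnd1, the transcription factor Foxm1 and the helicase subunit Mcm7 had no named probe set and were not analysed here. The 51 genes were followed through 26 subcutaneous tumors grown in male C57BL/6 mice from Panc02, a murine pancreatic ductal adenocarcinoma line. All mice ate the AIN-93G diet. They had arrived at 6 to 8 weeks of age and were acclimated for 1 week. HMB (β-hydroxy-β-methylbutyrate), a metabolite of leucine, was mixed into the diet at 1% of its weight starting 1 week ahead of the tumor cell injection. Anti-PD1, an antibody that blocks an inhibitory receptor of T cells, was injected at 200 µg per mouse with 3 days between doses, from 2 weeks after the tumor cells. The control group (6 tumors) had neither treatment, the HMB group (7 tumors) had the diet, the anti-PD1 group (6 tumors) had the antibody and the anti-PD1 + HMB group (7 tumors) had both. By the study's methods, mice without anti-PD1 received an isotype antibody. Groups were taken from the sample titles, whose numbers per group differ from those in the submitters' design text. Panc02 is a single transplanted cell line in a host with intact immunity, and each array measured RNA of a whole homogenized tumor. A difference in a gene's value therefore cannot tell fewer cells of a type from less RNA per cell.

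A dividing cell passes from G1 through DNA synthesis (S phase) and G2 to mitosis. In G1, cyclin E with Cdk2 releases the E2F transcription factors, which turn on genes for replication origins, the MCM helicase and nucleotide supply. Cdk inhibitors such as p21 (Cdkn1a) and p27 (Cdkn1b) hold this step back. In G2 and mitosis, Cdk1 with cyclins A and B, the Aurora and Polo-like kinases, the kinetochore and the spindle motors act in turn, and their genes peak together through the MuvB complex with B-Myb (Mybl2) and FoxM1. In tumors, RNA of these genes is widely read as a measure of how many cells are cycling.

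The promoter letters divide the genes along the same line. Promoter windows from 250 bases before to 50 bases after the transcript start, from RefSeq on GRCm38.p6, were found for 44 of the 51 genes, and some genes had more than 1 start, which gave 48 windows. They were searched on both strands for the CHR element (TTTGAA), which MuvB complexes bind, for the CCAAT box (CCAAT), which NF-Y binds, and for E2F sites (TTTGGCGC, TTTCCCGC, TTTCGCGC or TTTGCCGC). The CHR letters stood in 20 of 26 windows of the G2 and mitosis genes (76.9%) and in 4 of 19 windows of the G1 and S genes (21.1%), beside 17.9% of all 32851 windows. The E2F letters stood in 1 of the G2 and mitosis windows (3.85%) and in 8 of the G1 and S windows (42.1%), beside 2.26% of all windows. CCAAT was found in 76.9% and 68.4% of these 2 sets and in 37.4% of all windows. CHR and CCAAT stood together in 69.2% of the G2 and mitosis windows and in 6.95% of all. In 0 of the 48 windows did matches of different motifs share bases. The 3 windows of the Cdk inhibitors held neither the CHR nor the E2F letters. A match describes the letters and not a bound site. The windows below are printed 5′ to 3′ on the gene's strand, with every match in capitals (on the other strand, ATTGG for CCAAT and TTCAAA for CHR). They show the mitotic pattern in Ccnb2 (cyclin B2, chr9:70421505-70421804, minus strand) and Top2a (topoisomerase IIα, which untangles DNA before it is separated, chr11:99024140-99024439, minus strand). Mcm6 (chr1:128359656-128359955, minus strand) shows the E2F letters of an S phase gene, and Cdkn1b (chr6:134920151-134920450, plus strand) a window with CCAAT only.
Ccnb2: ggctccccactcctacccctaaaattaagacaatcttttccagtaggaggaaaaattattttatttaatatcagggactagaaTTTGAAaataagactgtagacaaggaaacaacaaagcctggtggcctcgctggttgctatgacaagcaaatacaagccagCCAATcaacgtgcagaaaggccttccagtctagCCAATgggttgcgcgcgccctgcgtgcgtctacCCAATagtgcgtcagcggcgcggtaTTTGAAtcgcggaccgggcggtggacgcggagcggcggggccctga
Top2a: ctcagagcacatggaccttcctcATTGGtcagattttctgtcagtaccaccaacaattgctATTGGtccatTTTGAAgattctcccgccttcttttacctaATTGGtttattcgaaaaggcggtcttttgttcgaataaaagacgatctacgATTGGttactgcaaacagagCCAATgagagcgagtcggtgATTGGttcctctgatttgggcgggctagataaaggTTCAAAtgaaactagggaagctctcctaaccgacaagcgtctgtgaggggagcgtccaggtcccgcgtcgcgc
Mcm6: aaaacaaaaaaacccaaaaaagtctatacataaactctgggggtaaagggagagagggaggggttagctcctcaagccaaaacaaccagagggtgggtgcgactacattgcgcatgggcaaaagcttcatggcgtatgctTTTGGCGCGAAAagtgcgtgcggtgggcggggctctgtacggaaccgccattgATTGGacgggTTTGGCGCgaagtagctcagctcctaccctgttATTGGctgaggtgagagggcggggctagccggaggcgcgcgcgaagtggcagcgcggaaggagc
Cdkn1b: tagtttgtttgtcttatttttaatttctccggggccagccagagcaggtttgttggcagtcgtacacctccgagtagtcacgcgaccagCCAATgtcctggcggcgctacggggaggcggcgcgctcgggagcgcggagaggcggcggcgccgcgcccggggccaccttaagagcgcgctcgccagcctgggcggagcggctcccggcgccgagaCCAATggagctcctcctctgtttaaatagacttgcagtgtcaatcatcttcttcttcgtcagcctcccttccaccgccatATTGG
In Ccnb2 the 3 CCAAT boxes began at positions -87, -54 and -21 from the transcript start and the CHR letters at -167 and 4. Top2a had 6 CCAAT boxes, of which the nearest began at -58, with the CHR letters at -179 and -23. Mcm6 had E2F letters at -110, -106 and -47, where the first pair overlap on opposite strands, and no CHR.

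The deposited table holds processed values on a log scale, taken here as log2, for every probe set in each tumor. The 26 arrays had medians of 6.97 to 7.11, and any pair of them correlated at 0.932 to 0.992. The 95th percentile of the negative-control probe sets, used as the background level, was 10.9 to 11.3 per array (mean 11.1). Of the 51 cell cycle genes, 33 had a mean above it and 18 did not, compared with 4149 of the 19505 genes. A value under this level is not clearly above background. Of 10 markers of epithelial and pancreatic tumor cells, only 2 to 4 had a group mean above background. Of 10 T cell markers 0 to 2 did, and of 16 skeletal muscle markers 1. The values of the genes are given on the log2 scale throughout, and a level is not compared between genes, because each probe set has its own sensitivity.

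**Figure D1:**
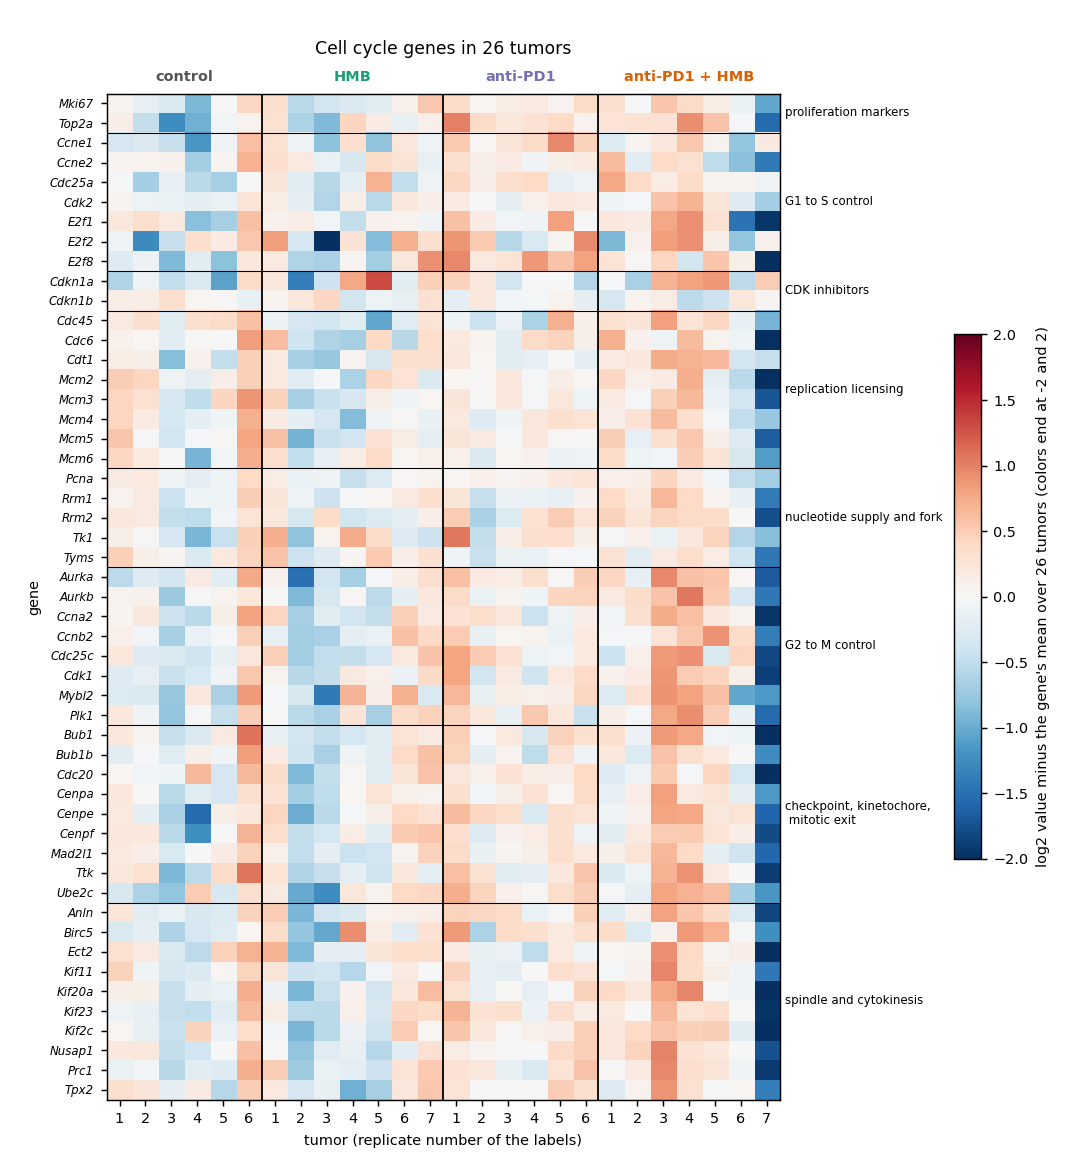
Each row is a cell cycle gene, ordered by role, and each column a tumor of the control, HMB, anti-PD1 or anti-PD1 + HMB group. Colors show the log2 value minus that gene's mean over 26 tumors, and tumor 7 of the anti-PD1 + HMB group is the blue column at the right edge, where 40 of 51 genes had their lowest value.

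The largest contrast among the 26 tumors lay within a treatment group. The mean of the 51 genes, each centered on its own mean over the 26 tumors, was -1.38 in tumor 7 of the anti-PD1 + HMB group, while the other 6 tumors of that group lay between -0.214 and 0.576. In tumor 7, 40 of the 51 genes had their lowest value of all tumors and 47 lay below the gene's mean. The same tumor had the highest mean of B cell markers (7.81, with 9 of 9 measured markers at their highest value of the 26 tumors). Its means of T cell (3.78, 10 of 10), adipocyte (6.5, 9 of 9) and endothelial markers (1.58, 4 of 9) were also the highest. Its mean of epithelial markers was the lowest (-1.6), with 4 of 10 markers at their lowest value and 2 of 10 above background. In that tumor 7 of the 9 B cell markers were above background, and in no group did any have a mean above it. B cell marker means ranged from -0.652 to -0.432 in control, -1.21 to 3.24 in HMB, -0.869 to 1.55 in anti-PD1 and -0.929 to 7.81 in anti-PD1 + HMB tumors. Tumor 2 of the HMB group had the next highest B cell (3.24) and adipocyte (4.61) means and the lowest cell cycle mean of its group, -0.549. The part of these other cells in the low cell cycle values was not tested. At the other end, tumor 3 of the anti-PD1 + HMB group had the highest cell cycle mean (0.576) and the highest value of 18 genes. Its adipocyte (-2.54) and skeletal muscle (-1.86) means were the lowest of the 26, while its T cell and B cell means each ranked 5 from the highest. A high adipocyte mean did not always go with a low cell cycle mean. Tumor 1 of anti-PD1 had an adipocyte mean of 3 and a cell cycle mean of 0.416, the highest of its group. HMB tumors 4 and 6 had adipocyte means of 3.57 and 3.36 and cell cycle means of -0.102 and 0.143. The counts and medians of the 51 genes in comparisons with the anti-PD1 + HMB group are therefore given with and without tumor 7. Values of single genes and of other lists include it unless stated otherwise.

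**Figure D2:**
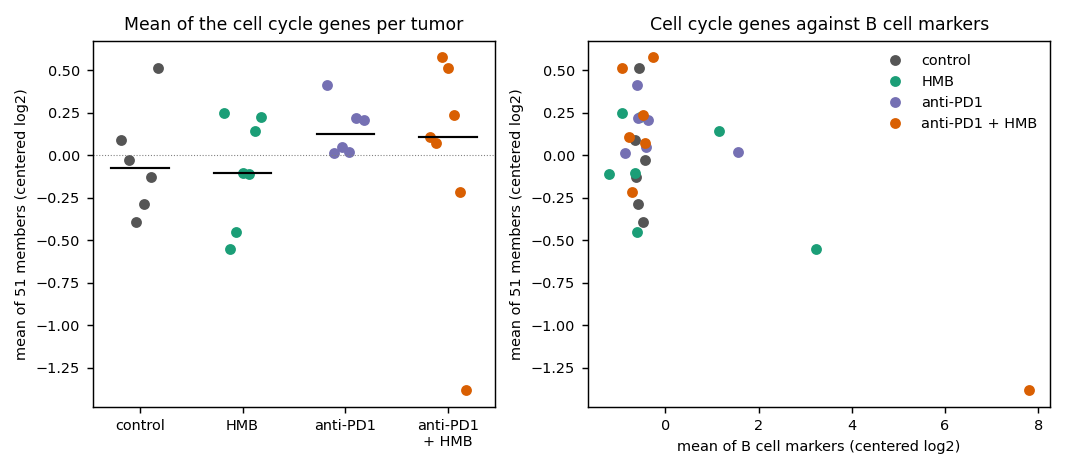
Left, the mean of the 51 cell cycle genes in each tumor (centered log2 value) by group, with a line at the group median. Right, the same means against the mean of B cell markers (centered log2 value): the tumor at -1.38 has a B cell mean of 7.81, and the tumor at -0.549 has 3.24.

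Tumors also differed within the other groups. Cell cycle means ran from -0.394 to 0.516 in control (median -0.0774), from -0.549 to 0.25 in HMB (median -0.102), and from 0.0112 to 0.416 in anti-PD1 (median 0.128). The anti-PD1 tumors thus stood in a narrow band on the high side, inside the range of the controls. The median SD of the 51 genes was 0.409 in control, 0.44 in HMB, 0.256 in anti-PD1 and 0.782 in anti-PD1 + HMB tumors, and 0.365 in the last group without tumor 7. Over all genes the median SD was 0.345, 0.36, 0.326 and 0.391. In the anti-PD1 group 12 of the 51 genes had an SD above that of the median gene, compared with 34 in control, 36 in HMB and 49 in anti-PD1 + HMB (32 without tumor 7).

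With group means removed, most of the genes varied together from tumor to tumor, and the 10 of the spindle and cytokinesis had the highest correlations among the roles with over 2 genes. Over the 26 tumors, the Pearson correlation of a gene with the mean of the other cell cycle genes had a median of 0.854, and 45 of the 51 genes were above 0.7. Without the 2 tumors farthest from the middle (tumors 7 and 3 of anti-PD1 + HMB) the median was 0.746 and 31 genes stayed above 0.7. The other 19454 genes had a median of 0.025, a 5th percentile of -0.523 and a 95th of 0.54. These correlations are descriptions over tumors that share an array platform and a normalization. The highest was that of Kif23 (0.947), a kinesin of the central spindle, followed by Rrm1 and Kif20a (0.939 each), the large subunit of ribonucleotide reductase and another kinesin of cytokinesis. Bub1, a kinase of the spindle checkpoint, was at 0.933. The median correlation between pairs of genes was 0.851 among the 10 spindle and cytokinesis genes, 0.785 among the 9 of the checkpoint, kinetochore and mitotic exit, 0.754 among the 8 of G2 to M control, 0.684 among the 8 of replication licensing and 0.395 among the 7 of G1 to S control. Without the same 2 tumors these medians were 0.635, 0.612, 0.581, 0.588 and 0.307.

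A few genes had low correlations with the rest, 3 of the 7 of G1 to S control and both Cdk inhibitors among them, while Cdk2 (0.833), E2f8 (0.806), E2f1 (0.746) and Ccne2 (0.712) of G1 to S control were above 0.7. Cdkn1b, which encodes the Cdk inhibitor p27, was the only one with a negative correlation, -0.408, and -0.582 without the 2 farthest tumors. Cdkn1a, the p53-induced inhibitor p21, was at 0.296 and correlated with Cdkn1b at -0.428. Cdc25a, a phosphatase that activates Cdk2, was at 0.298, Ccne1 (cyclin E1) at 0.377 and E2f2, an activating E2F, at 0.398. Without the 2 farthest tumors Ccne1 was at 0.644, E2f2 at 0.551, Cdkn1a at 0.503 and Cdc25a at 0.272. Of the genes whose promoters are printed, Ccnb2 was at 0.844, Top2a at 0.852 and Mcm6 at 0.771. Windows with neither CHR nor E2F letters, like that of Cdkn1b, also belonged to genes with high correlations, among them Rrm1 (0.939), Bub1 (0.933) and Mad2l1, a spindle checkpoint protein (0.912). Ccne1, Cdc25a, E2f2 and Cdkn1a had means below the background level, as did Bub1 and Cdk1, which correlated at 0.933 and 0.916.

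**Figure D3:**
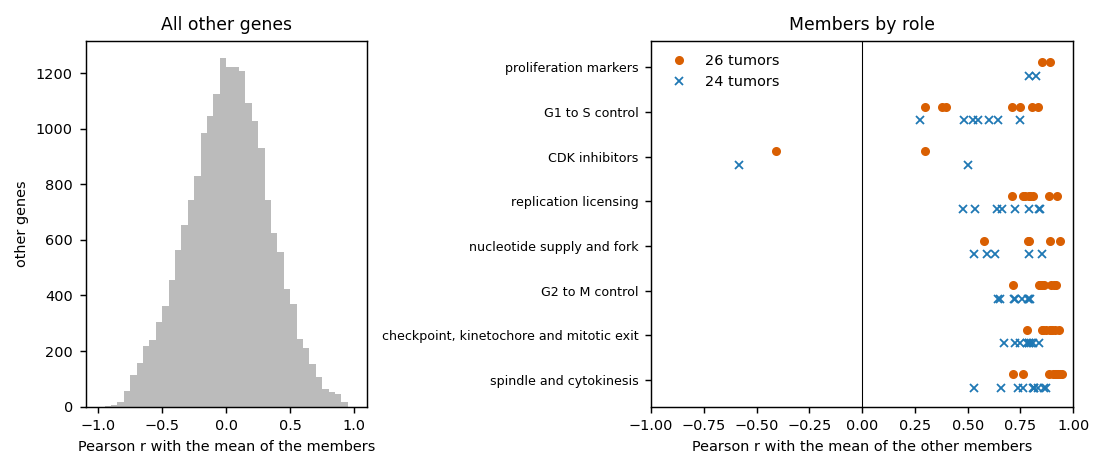
Left, the number of other genes by their Pearson correlation with the mean of the 51 cell cycle genes, group means removed, over 26 tumors. Right, the correlation of each cell cycle gene with the mean of the others, by role, over 26 tumors (circles) and without the 2 farthest (crosses). The circles cluster near the median of 0.854, and the lone point left of 0 is Cdkn1b at -0.408 (-0.582 without the 2 tumors).

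Outside the list, the genes most like its mean were known partners of the same processes. Cenpn, a centromere protein, correlated at 0.937, and Pclaf, a factor that binds the sliding clamp PCNA, at 0.933. Cdca3, which helps trigger entry into mitosis, was at 0.932, the outer kinetochore subunit Ndc80 at 0.93 and the kinesin Kif14 at 0.928. Melk, a mitotic kinase, followed at 0.914, Ckap2l, a spindle protein, at 0.912, and the centromere protein Cenpi, the condensin subunit Ncapd2 and the kinetochore protein Zwilch at 0.911. The spread between tumors was widest for E2f2, with an SD within groups of 0.782, E2f1 (0.675), Mybl2 (0.664), Bub1 (0.661) and Ect2 (0.647), an exchange factor that starts cytokinesis. It was smallest for Cdkn1b (0.241), the sliding clamp Pcna (0.262) and Cdk2 (0.325). E2f2, E2f1, Mybl2 and Bub1 lay below the background level on average.

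Each treatment was compared with control, and the combination with each treatment alone, by limma over all 19505 genes and 26 tumors, with Benjamini-Hochberg adjustment. The 3 comparisons with control share the same 6 control tumors, and the combination enters several comparisons. None of the 51 genes passed an adjusted p of 0.05 in any comparison, nor did any other gene (0% of all genes in each direction). Counts at an unadjusted p under 0.05 are given as a description, beside the share of all genes at the same threshold. With all tumors, 9153 to 9589 of the 19505 genes were above 0 in these comparisons. Most of the 51 genes varied together, so a count of them above or below 0 is not a count of separate observations. The differences below are log2 differences with their standard errors.

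In the anti-PD1 tumors 41 of the 51 genes were higher than in control, beside 9589 of all 19505 genes, with a median of 0.153 (all genes, -0.005). At an unadjusted p under 0.05, 4 were higher (7.84%) and 0 lower, beside 2.41% of all genes higher and 3.59% lower. Of the 7 G1 to S control genes all were above 0 (median 0.388), as were all 8 of G2 to M control (median 0.247), 9 of 10 of the spindle and cytokinesis (median 0.192) and 8 of 9 of the checkpoint and kinetochore (median 0.12). Of the 8 replication licensing genes 3 were above 0, with a median of -0.072. Differences between these roles were not tested. Per tumor, the mean of the 51 genes averaged 0.153 (SD 0.159) in the 6 anti-PD1 tumors and -0.038 (SD 0.322) in the 6 controls.

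E2f8, an atypical E2F that represses E2F targets late in S phase, had values of 12.43, 13.06 and 13.51 (lowest, median and highest) in control and of 13.51, 13.99 and 14.27 in anti-PD1 tumors. Of the 6 anti-PD1 tumors 5 lay above every control. The difference was 0.96 (SE 0.34, limma adjusted p = 0.684). Ccne1, which drives entry into S phase, had 7.12, 7.97 and 8.89 in control and 8.32, 8.70 and 9.24 in anti-PD1 tumors. The groups overlapped in 5 of 6 anti-PD1 tumors, and the difference was 0.72 (SE 0.26, limma adjusted p = 0.684). Cdc25a had 7.58, 7.91 and 8.26 in control and 8.09, 8.49 and 8.67 in anti-PD1 tumors, with 4 of 6 above all controls and a difference of 0.51 (SE 0.19, limma adjusted p = 0.718). Both Ccne1 and Cdc25a lay below background in every group.

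Top2a, a common marker of proliferating cells, had 11.50, 12.48 and 12.88 in control and 12.81, 13.08 and 13.76 in anti-PD1 tumors. Of these tumors 5 of 6 lay above all controls. The difference was 0.82 (SE 0.32, limma adjusted p = 0.725), and without control tumor 3 it was 0.65 and no longer passed an unadjusted p of 0.05. Mki67, which encodes Ki-67, had 14.06, 14.86 and 15.37 in control and 14.99, 15.11 and 15.33 in anti-PD1 tumors, all within the range of the controls. Its difference was 0.34 (SE 0.23, adjusted p = 0.886). Cenpe, a kinetochore motor, differed by 0.59 (SE 0.34, adjusted p = 0.875).

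Of the markers given here for every comparison, the others differed by less than their errors. Cdk1 was at 0.25 (SE 0.31), Ccna2 (cyclin A2) at 0.04 (SE 0.33), Pcna at 0.06 (SE 0.16), the helicase subunit Mcm2 at -0.14 (SE 0.30) and E2f1 at 0.27 (SE 0.37). The inhibitors Cdkn1a and Cdkn1b were at 0.32 (SE 0.35) and -0.12 (SE 0.15). In the anti-PD1 group the T cell marker mean ran from -0.39 to 1.31 and that of epithelial markers from -0.56 to 0.942, compared with -1.78 to 0.0624 and -0.779 to 0.189 in control. Relative to control, 9 of 10 T cell markers were above 0 (median 0.745, 0 past an unadjusted p of 0.05) and 9 of 10 epithelial markers (median 0.472, 2 past it). The part of either in the cell cycle values was not tested.

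**Figure D4:**
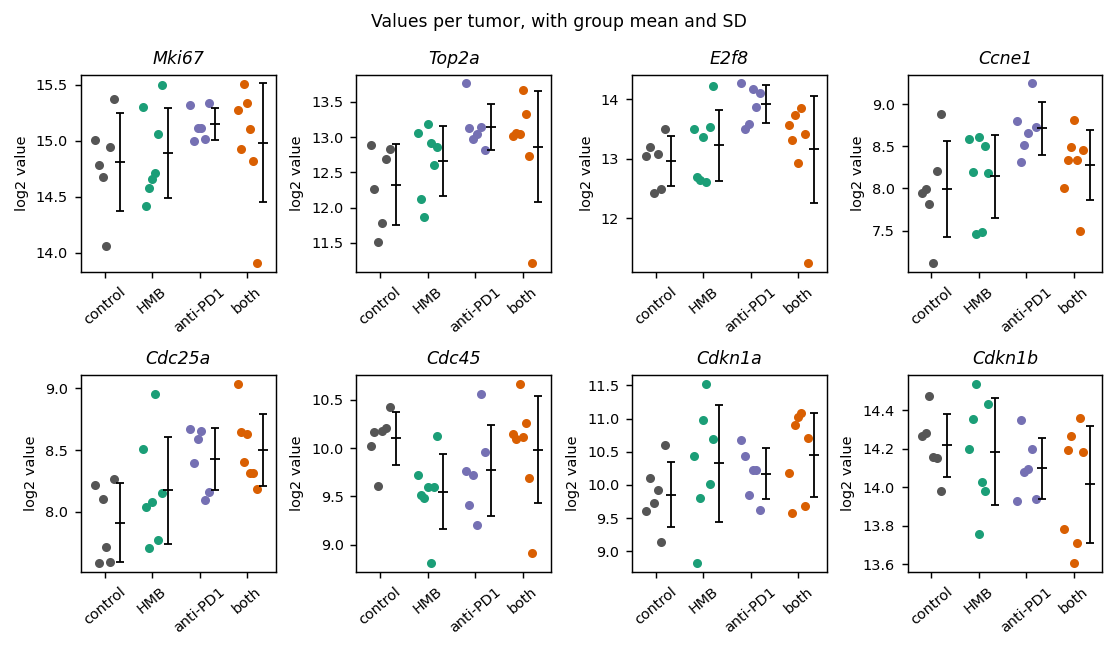
Log2 values of 8 cell cycle genes in each tumor (points), with the group mean and SD beside them, for control, HMB, anti-PD1 and both treatments. For E2f8 and Top2a, 5 of 6 anti-PD1 tumors lie above all controls, and the lowest point of both treatments in Mki67, Top2a, E2f8 and Cdc45 is tumor 7.

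With HMB alone the median of the 51 genes was -0.039 (all genes, -0.015), with 19 above 0. At an unadjusted p under 0.05, 0 were higher and 1 lower, beside 3.14% and 3.79% of all genes. All 8 replication licensing genes were below 0, with a median of -0.268 and a range of -0.553 to -0.009. They varied together from tumor to tumor, so they are not 8 separate observations. Control tumor 6 had the highest licensing mean of the controls (0.684). Without it Cdt1 was at 0.073, Mcm3 at -0.19 and Mcm4 at -0.199. Cdc45, which joins the MCM ring to form the active helicase, had 9.61, 10.17 and 10.43 in control and 8.81, 9.60 and 10.12 in HMB tumors. Of the 7 HMB tumors 5 lay below every control. The difference was -0.55 (SE 0.24, limma adjusted p = 0.686), and Cdc45 lay below background in all groups. Without HMB tumor 5, which had the highest skeletal muscle marker mean (6.98), it was -0.43, and without control tumor 6 it was -0.49, and neither passed an unadjusted p of 0.05.

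The helicase subunits Mcm4, Mcm3 and Mcm2 were at -0.32 (SE 0.21), -0.33 (SE 0.28) and -0.25 (SE 0.29). Cdkn1a had 9.15, 9.82 and 10.60 in control and 8.83, 10.44 and 11.52 in HMB tumors. Its difference was 0.47 (SE 0.34, adjusted p = 0.802), and 0.72, past an unadjusted p of 0.05, without HMB tumor 2. Cdc25a was at 0.26 (SE 0.19). Mki67, Top2a, Cdk1 and Ccna2 were at 0.08 (SE 0.22), 0.33 (SE 0.31), 0.06 (SE 0.30) and -0.13 (SE 0.31), and Pcna, E2f1 and Cdkn1b at -0.17 (SE 0.15), 0.00 (SE 0.36) and -0.03 (SE 0.14). The 95% interval of Mki67 ran from -0.38 to 0.55, and changes of these sizes cannot be told from 0 here. All 10 epithelial markers were above 0 with HMB (median 0.618, 4 past an unadjusted p of 0.05), as were all 16 skeletal muscle markers (median 2.21, 1 past it), and their part was not tested.

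For anti-PD1 + HMB against control, the values of the list depended on tumor 7. With all 7 tumors the median of the 51 genes was 0.029 (all genes, -0.019), with 28 above 0. Of the 51, 1 was higher and 0 lower at the unadjusted threshold, beside 3.42% and 4.71% of all genes. Without tumor 7 the median was 0.269 (all genes, -0.008), 44 were above 0, and 6 were higher and 0 lower, beside 2.71% and 3.31% of all genes. The gene that was higher in both fits was Cdc25a, with 8.18, 8.40 and 9.04 in the combination and 6 of 7 tumors above all controls. Its difference was 0.59 (SE 0.19, limma adjusted p = 0.534), and 0.64 (SE 0.19, adjusted p = 0.751) without tumor 7. Tumor 7 had the lowest Cdc25a value of its group, 8.18, inside the range of the controls.

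Top2a had 11.22, 13.04 and 13.67 in the combination. Tumor 7 was below all controls and 5 of the 7 tumors were above them. The difference was 0.54 (SE 0.31, adjusted p = 0.651), and 0.81 (SE 0.25, limma adjusted p = 0.751) without tumor 7. Cenpe, E2f8, Cdk1 and Aurkb, the kinase of the chromosomal passenger complex, were the others of the 6, at 0.66 (SE 0.28), 0.52 (SE 0.25), 0.49 (SE 0.21) and 0.45 (SE 0.21) without tumor 7. With it, Cdk1 was at 0.17 (SE 0.30), E2f8 at 0.20, Cenpe at 0.38 and Aurkb at 0.19. Mki67 had 13.91, 15.10 and 15.51, with a difference of 0.18 (SE 0.22), and 0.35 without tumor 7.

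Cdkn1a had 9.57, 10.71 and 11.08 in the combination, with 4 of 7 tumors above all controls, and a difference of 0.60 (SE 0.34, adjusted p = 0.651). Its value in tumor 7 was not low (10.71), as with Cdkn1b (14.18). Cdkn1b differed by -0.20 (SE 0.14). Tyms, which makes thymidylate for DNA, was at -0.32 (SE 0.23) and Mcm2 at -0.41 (SE 0.29), which became -0.11 and -0.10 without tumor 7. Ccna2, Pcna and E2f1 were at -0.05 (SE 0.31), -0.12 (SE 0.15) and -0.12 (SE 0.36), and at 0.28, -0.02 and 0.17 without tumor 7. Cdkn1a and Cdkn1b were at 0.55 and -0.23 without it. In this comparison 8 of 10 T cell markers (median 1.48) and 10 of 16 skeletal muscle markers (median 3.04) were higher at an unadjusted p under 0.05. Only 2 of the T cell and 1 of the muscle markers had a combination mean above background. Over the 7 tumors the T cell marker mean ran from -0.482 to 3.78 and the muscle marker mean from -1.86 to 6.3. The part of either in the cell cycle values was not tested.

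**Figure D5:**
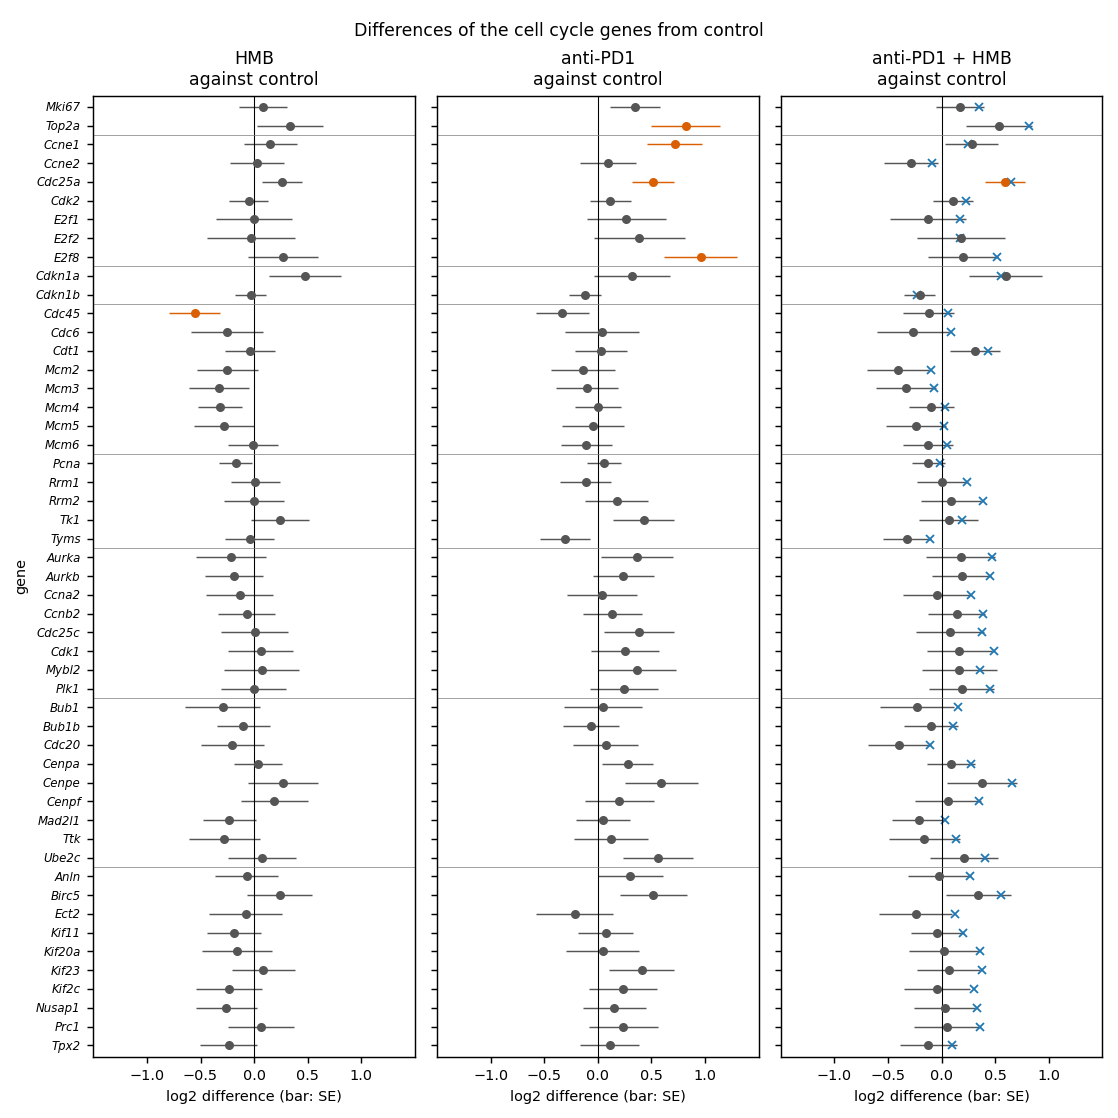
Log2 differences from control of the 51 cell cycle genes, ordered by role, for HMB, anti-PD1 and anti-PD1 + HMB (circles, bars 1 SE, orange where the unadjusted p was under 0.05). Blue crosses give anti-PD1 + HMB without tumor 7 and mostly lie to the right of the circles, with medians of 0.269 and 0.029.

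Adding HMB to anti-PD1 was compared within the antibody-treated mice. With all tumors the median was -0.187 (all genes, -0.009) and 6 of 51 genes were above 0. At the unadjusted threshold 0 were higher and 1 was lower, beside 1.85% and 2.33% of all genes. All 10 spindle and cytokinesis genes and all 9 of the checkpoint and kinetochore were below 0. When tumor 7 was left out, each of these roles held genes on both sides of 0. Without tumor 7 the median was 0.066 and 34 genes were above 0, with 1 higher and 0 lower, beside 1.74% and 1.6% of all genes. That gene was Rrm1 at 0.36 (SE 0.16, adjusted p = 1). The direction of the list in this comparison thus rested on 1 tumor. E2f8 had 11.26, 13.42 and 13.86 in the combination, and 4 of its 7 tumors were below every anti-PD1 tumor. The difference was -0.76 (SE 0.33, limma adjusted p = 0.999), and -0.44 without tumor 7. Without anti-PD1 tumors 1 or 4 it was -0.69 and -0.71, and in these 3 fits it did not pass an unadjusted p of 0.05. Ccne1 (-0.43, SE 0.25), Cdc20, which activates the anaphase-promoting complex (-0.47, SE 0.29), Ccne2 or cyclin E2 (-0.38, SE 0.25) and the thymidine kinase Tk1 (-0.36, SE 0.27) followed. Mki67, Top2a and Cdk1 were at -0.17 (SE 0.22), -0.28 (SE 0.31) and -0.09 (SE 0.30), and at 0.01, 0.00 and 0.23 without tumor 7. Ccna2, Pcna, Mcm2 and E2f1 were at -0.08, -0.18, -0.27 and -0.39, and Cdkn1a and Cdkn1b at 0.28 and -0.08.

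Anti-PD1 + HMB was also compared with HMB. With all tumors the median was 0.092 (all genes, -0.009), and 35 of 51 genes were above 0. At the unadjusted threshold 0 were higher and 0 lower, beside 4.71% and 4.1% of all genes. Without tumor 7 the median was 0.308, 47 genes were above 0, and 12 were higher and 0 lower, beside 4.69% and 3.4% of all genes. None of them passed an adjusted p of 0.05. The 12 included the kinases Aurka (0.69, SE 0.25) and Aurkb (0.63, SE 0.20), the cyclin Ccnb2 (0.46, SE 0.21), the checkpoint kinase Bub1 (0.45, SE 0.22), and Nusap1, a microtubule-bundling protein of the spindle (0.59, SE 0.19, adjusted p = 0.38). Kinesins were among them, Kif2c at 0.53 (SE 0.19), Kif20a at 0.52 (SE 0.22) and Kif11 at 0.39 (SE 0.19). Cdc45 was at 0.61 (SE 0.20) without tumor 7 and 0.44 (SE 0.23) with it, Cdt1, which loads the MCM ring, at 0.47 (SE 0.22) and 0.35 (SE 0.22), and Cdk1 and Rrm2 at 0.42 and 0.39 without it. In this comparison HMB tumor 2, low in cell cycle genes and high in B cell markers, stood in the other group. Without both tumors 5 of the genes passed an unadjusted p of 0.05, but the share of all genes in that fit was not taken. With all tumors, 9 of 10 T cell markers were higher than with HMB at that threshold (median 1.72), and their part was not tested. With all tumors Cdc25a was at 0.33 (SE 0.18), Ccne2 at -0.31 (SE 0.24), Mki67 at 0.09 (SE 0.22), Top2a at 0.21 (SE 0.29), Ccna2 at 0.09, Pcna at 0.05, Mcm2 at -0.15, E2f1 at -0.12, Cdkn1a at 0.13 and Cdkn1b at -0.17.

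The interaction asks whether the difference that HMB made was the same with and without anti-PD1. It had a median of -0.049 (all genes, 0.006), and at the unadjusted threshold 1 gene was higher and 1 lower, beside 2.61% and 2.96% of all genes. Cdc45 was at 0.77 (SE 0.34, limma adjusted p = 0.884), from differences to control of -0.55 with HMB, -0.33 with anti-PD1 and -0.12 with both. E2f8 was at -1.03 (SE 0.46, limma adjusted p = 0.884), from differences to control of 0.27 with HMB, 0.96 with anti-PD1 and 0.20 with both (0.52 without tumor 7). Without tumor 7 the median was 0.172, with 1 gene higher and 1 lower, beside 3.11% and 2.94% of all genes. Cdc45 and E2f8 were then at 0.95 (SE 0.29, adjusted p = 0.748) and -0.71 (SE 0.34, adjusted p = 0.819). Ccne1, Tk1 and Top2a followed at -0.58 (SE 0.35), -0.60 (SE 0.39) and -0.61 (SE 0.43). Mki67 was at -0.25 (SE 0.32), Cdk1 at -0.15, Ccna2 at 0.05, Pcna at -0.01, Mcm2 at -0.02, E2f1 at -0.39, Cdkn1a at -0.19 and Cdkn1b at -0.05. Leaving out other single tumors took Cdc45 to 0.64 and E2f8 to -0.86 at the least, where neither passed an unadjusted p of 0.05.

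Further genes of the same machinery, taken from lists of known partners, gave few differences. With HMB alone 31 of 38 other origin and replisome genes were below 0 (median -0.109), beside 10245 of all 19505 genes. This was the direction of the replication licensing genes, but both lists were measured in the same tumors and are not separate observations. How far the 31 rested on single tumors was not tested. At an unadjusted p under 0.05, 3 of them were lower (7.89%) and 1 higher (2.63%), beside 3.79% and 3.14% of all genes. Rpa2, a subunit that coats single-stranded DNA, was at -0.49 (SE 0.19, adjusted p = 0.686), the helicase partner Gins3 at -0.46 (SE 0.18), the polymerase subunit Pold2 at -0.44 (SE 0.21), and the clamp loader Rfc1 at 0.28 (SE 0.13). Relative to HMB, the combination had Gins3 at 0.46 (SE 0.18, adjusted p = 0.421) and the polymerase Pole at 0.58 (SE 0.24). Rpa2, Gins3 and Pole had means below background in every group, while Pold2 and Rfc1 lay above it. With anti-PD1 the medians were 0.053 for the 38 origin and replisome genes, 0.002 for 32 of the kinetochore and centromere and 0.145 for 38 of condensin, cohesin and spindle motors, with 0 genes past an unadjusted p of 0.05. In the combination they were -0.019, -0.035 and 0.019 relative to control. Smc1a, a cohesin subunit, differed from control by 0.32 (SE 0.14) with HMB, 0.27 (SE 0.15) with anti-PD1 and 0.42 (SE 0.14, limma adjusted p = 0.535) with both. Hjurp, which deposits the centromeric histone, was at -0.42 (SE 0.16, adjusted p = 0.388) in the combination relative to HMB.

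Upstream of the G1 decision, 23 genes of the RB family, D cyclins and other Cdk inhibitors had medians of -0.009, -0.033 and 0.047 with HMB, anti-PD1 and both. Their median pairwise correlation was 0.053, and that of 19 targets of p53 was 0.063. E2f3, an activating E2F, was at 0.46 (SE 0.16, limma adjusted p = 0.686) with HMB. Cdkn2a, which encodes p16 and p19Arf, was at 0.54 (SE 0.23) with HMB, 0.66 (SE 0.24) with anti-PD1 and 0.47 (SE 0.23) with both, at group means of 2.52 to 3.18, far below background. Among the p53 targets, the kinase Plk2 was at -0.67 (SE 0.25, adjusted p = 0.719) with anti-PD1 and -0.58 (SE 0.25, adjusted p = 0.579) with both. The receptor gene Eda2r was at -0.83 (SE 0.39) with anti-PD1 and -0.999 (SE 0.38) with both, and Gadd45a, a stress-induced gene, at -0.94 (SE 0.42) with anti-PD1. Plk3, a stress-responsive Polo-like kinase, was at -0.71 (SE 0.25, adjusted p = 0.686) with HMB. Ddit4l, another p53 target, was at 0.67 (SE 0.26, adjusted p = 0.686) with HMB. E2f3, Eda2r, Plk3 and Ddit4l also had means below background in every group, Ddit4l far below it at 4.08 to 4.75. Plk2 and Gadd45a lay above background. Of the 19 targets 7, 8 and 7 were above 0 with HMB, anti-PD1 and both.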

How the data were processed

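RNA of 26 homogenized tumors was hybridized to Clariom S arrays, 1 array per tumor. The authors deposited 1 processed log2 value per probe set, where base 2 is assumed. How they were normalized is not stated in these sources, and they were used as deposited. Of 28846 probe sets, 19572 had a gene symbol, and the brightest was kept for each gene, giving 19505 genes, all of which were tested. The 95th percentile of 5222 negative controls served as background. Precision is limited by how few arrays each group has.

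The test was limma 3.58.1 under R 4.3.3. It fitted the 4 group means to all tumors, and p-values were adjusted by Benjamini-Hochberg over the 19505 genes. The interaction is the combination minus anti-PD1 minus HMB plus control. The fit was tested on simulated data in which each gene was drawn independently from a normal distribution. That setting does not cover genes that vary together or a tumor far from its group, as in these data. By the methods a mouse carried its tumor in the right flank, and tumors were taken as separate mice. The members and lists were chosen with earlier results of these data known. Named were fixed markers (Mki67, Top2a, Cdk1, Ccna2, Pcna, Mcm2, E2f1, Cdkn1a, Cdkn1b), the 5 members with the smallest p per comparison, the 5 most and 3 least variable, up to 2 genes per further list and comparison and the 10 genes most like the member mean. Other genes were named after their values were seen. Markers of 10 cell types were averaged per tumor after centering each gene. Alternatives were quantile normalization, removal of dim genes, another variance model, array weights, means of probe sets, fits of the groups compared, a block for replicate number, the t-test that the methods name, and fits without tumors high in muscle or B cell markers or without each tumor.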

Additional observations from a re-analysis of the deposited data

Results flagged for a closer look

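Of 208 sets of values (each cell cycle gene, and their mean, in each group), 31 held a tumor far from the rest of its group by the size of its gap to the nearest tumor, and in 24 of them it was tumor 7 of anti-PD1 + HMB. Chance marks about 1 in 20 such sets. The sets are not independent, because most of the genes varied together, so 1 tumor can be marked many times. Tumor 7 stood low for the mean of the 51 genes (-1.38) and, among the genes named, for Top2a (11.22), Cdk1 (8.864), Ccna2 (11.8), Cdc20 (9.118), Tyms (9.701), E2f8 (11.26), Bub1 (8.206), Cenpe (11.35) and Ect2 (11.04). In the anti-PD1 group tumor 1 stood high for Top2a (13.76) and tumor 2 low for Tyms (10.7). HMB tumor 4 stood low for E2f1 (7.075), and control tumor 3 low for Aurkb (11.36).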

How the results depend on the processing

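The count of cell cycle genes past an adjusted p of 0.05 stayed 0 in all 150 pairs of a comparison and an alternative. No median moved by more than 0.42, the SD of the gene mean within groups. This SD is larger than every median of the 51 genes given here, so a median could change sign within it. The median for anti-PD1 + HMB against anti-PD1 did so without tumor 7 (-0.187 to 0.066). Counts at an unadjusted p under 0.05 did move. Among the alternatives, the share of all genes was taken only for the fit without tumor 7 of anti-PD1 + HMB. The counts below therefore describe the fits and are not read as results about the genes. With HMB against control (1 gene) there were 0 with dim genes removed, with the replicate block or without the 3 tumors highest in muscle markers, and 2 without the 2 tumors highest in B cell markers. With anti-PD1 against control (4) there were 2 with dim genes removed and 7 by the methods' t-test. With anti-PD1 + HMB against control (1) there were 0 with dim genes removed, 2 with array weights, 2 with the replicate block and 8 without the B cell-high tumors. Against anti-PD1 (1) there were 0 with array weights, the replicate block or the t-test. Against HMB (0) there were 4 with array weights, 1 without the muscle-high and 5 without the B cell-high tumors. For the interaction (2) there was 1 with dim genes removed, with the replicate block or without the muscle-high tumors. Leaving out 1 tumor at a time gave 0 to 2, 3 to 5, 1 to 6, 0 to 2, 0 to 12 and 0 to 2 genes in these 6 comparisons, and medians of -0.108 to 0.053, 0.097 to 0.263, -0.102 to 0.269, -0.279 to 0.066, -0.033 to 0.308 and -0.17 to 0.172. Apart from the dim-gene filter, which removes genes, the cause of these changes was not tested. Tumors with the same replicate number had mean correlations of -0.053 to 0.066 between groups, and single pairs ran from -0.24 to 0.315. The number was therefore not used as a pairing in the reported fit, and a link between some of the tumors was not tested. Of the values of named genes, 3916 kept their side of the threshold, 35 passed it only in the alternative and 27 passed it only with all tumors and settings as reported. Levels of the 18 genes with a mean below background are less certain than those of the other 33.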
